A study of Mus musculus with 6 samples.

Results

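Cxcl12 and 9 other chemokines that stromal cells secrete (Cxcl1, Cxcl5, Cxcl10, Cxcl14, Cxcl16, Ccl2, Ccl7, Ccl9 and Cx3cl1) were measured in sorted calvaria cells of mice. Every probe that the platform's annotation assigned to 1 of these 10 genes was taken, which gave 15 probes of the 25697 on the array, where 16594 genes were named. RNA was hybridized to 6 Illumina mouse BeadChip arrays, 3 for each group. The cells came from the calvaria of C57BL/6 mice a few days old, were cultured, and were sorted for green fluorescent protein (GFP), which the Osx1-Cre transgene carries and which marks cells of the osteoblast lineage. The ERα deleted cells carried floxed ERα alleles together with GFP:Osx1-Cre, and the control cells carried GFP:Osx1-Cre alone, so both groups had the transgene. The sample labels name the groups differently, as Mmp13 knockout and wild type, with 3 arrays in each. The arrays labelled Mmp13 knockout were taken as ERα deleted and those labelled wild type as controls. The labels do not state this match, and the names used by the study's text were kept. Mmp13, a collagenase, was higher on the arrays labelled as its knockout (log2 fold change of its brightest probe 3.35, adjusted p = 0.000484 from limma), and both probes of Esr1, which encodes ERα, were undetected on all 6 arrays (detection p from 0.164 to 0.984). Mmp13 thus went against its label, and whether ERα was lost was not readable from these arrays. Whether the 3 arrays of each kind stand for separate cultures or animals is not stated in the sources used here, so p-values measure the spread between arrays.

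Chemokines are small secreted proteins that direct cell migration through G protein-coupled receptors, and their names follow the spacing of the first conserved cysteines (CXC, CC, CX3C). In bone, CXCL12 from stromal and osteoblast lineage cells retains hematopoietic progenitors through the receptor CXCR4, and CC ligands such as CCL2, CCL7 and CCL9 attract monocytes and osteoclast precursors. Many inflammatory chemokine genes are targets of NF-κB, and CXCL10 is induced by interferons, whereas CXCL12 and CXCL14 are counted among the homeostatic chemokines, which are made without an inflammatory stimulus.

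Promoter windows of 4 of these genes are shown, those of the 3 genes that were higher in ERα deleted cells and that of Cxcl1, which was lower, so that the letters in front of each can be read beside its values. Each runs from 250 bases before to 50 bases after the start of the gene, is taken from RefSeq (GRCm38.p6) and is written 5′ to 3′ on the strand of the gene. Capitals mark matches to any of 5 motifs, each searched on both strands. These were a κB motif (GGGNNNTTCC), an interferon-stimulated response element core (GAAANNGAAA), an AP-1 motif (TGAGTCA), the TATA box (TATAAA) and an estrogen response element (GGTCANNNTGACC), where N is any base. The window of Cxcl12 lies on the + strand at chr6:117168285-117168584, that of Cx3cl1 on the + strand at chr8:94771930-94772229, that of Cxcl10 on the - strand at chr5:92348840-92349139 and that of Cxcl1 on the + strand at chr5:90890995-90891294.
Cxcl12: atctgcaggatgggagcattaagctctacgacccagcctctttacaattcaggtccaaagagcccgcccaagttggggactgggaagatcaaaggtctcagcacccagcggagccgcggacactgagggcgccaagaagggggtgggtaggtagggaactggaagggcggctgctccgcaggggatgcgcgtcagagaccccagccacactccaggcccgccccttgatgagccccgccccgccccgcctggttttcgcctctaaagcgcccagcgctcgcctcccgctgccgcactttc
Cx3cl1: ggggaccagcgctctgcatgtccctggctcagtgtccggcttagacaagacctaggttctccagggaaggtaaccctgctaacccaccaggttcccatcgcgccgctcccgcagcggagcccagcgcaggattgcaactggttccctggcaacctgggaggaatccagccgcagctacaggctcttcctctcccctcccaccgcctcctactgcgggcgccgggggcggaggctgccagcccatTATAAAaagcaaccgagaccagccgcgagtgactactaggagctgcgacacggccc
Cxcl10: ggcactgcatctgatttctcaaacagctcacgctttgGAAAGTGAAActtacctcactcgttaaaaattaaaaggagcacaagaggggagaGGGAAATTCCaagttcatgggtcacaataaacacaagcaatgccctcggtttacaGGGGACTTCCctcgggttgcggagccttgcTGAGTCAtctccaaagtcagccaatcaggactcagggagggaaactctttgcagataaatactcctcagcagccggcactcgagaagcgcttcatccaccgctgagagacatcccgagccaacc
Cxcl1: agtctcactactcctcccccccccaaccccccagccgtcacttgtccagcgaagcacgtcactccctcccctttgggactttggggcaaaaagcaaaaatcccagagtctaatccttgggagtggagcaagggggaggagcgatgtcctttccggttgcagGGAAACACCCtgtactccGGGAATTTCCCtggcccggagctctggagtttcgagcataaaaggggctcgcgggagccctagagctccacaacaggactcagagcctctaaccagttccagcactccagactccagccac

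Windows were listed for 6 of the 10 genes, and those of Cxcl5, Cxcl16, Ccl2 and Ccl7 were not. The Cxcl12 window held none of the 5 motifs, and 20 CpG dinucleotides, against a median of 7 over all 32851 windows of this length. The Cx3cl1 window was as rich in G and C (64.67% in each, against a median of 52.67%), held 19 CpG dinucleotides, and had as its only match a TATA box at position -6, counted back from the first base of the gene. The Cxcl10 window had κB matches at -159 and -104, an interferon response core at -213 and an AP-1 match at -74. The Cxcl1 window had κB matches at -89, -71 and -70, of which the last pair overlap on opposite strands. Of all windows, 5.56% held the κB motif, 3.44% the interferon response core, 5.2% the AP-1 motif, 13.6% the TATA box and 0.07% the estrogen response element. Among the windows not printed, that of Ccl9 held a κB match at -35 and TATA box matches at -224, -94 and -92, of which the last pair overlap. The Cxcl14 window held an interferon response core at -172 and, with 22, the highest number of CpG dinucleotides of the 6 windows. None of the 6 windows held an estrogen response element. These matches describe letters of the reference and not measured binding.

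Across the arrays, 40.2% to 43.6% of the probes were detected, at a detection p (the share of negative controls at least as bright) under 0.01. Correlations across tested probes ran from 0.991 to 0.995 between ERα deleted arrays and from 0.929 to 0.982 between control arrays. Control replicate 2 lay over 2 log2 from both other controls at 95 probes, where replicates 3 and 1 did so at 11 and 2 probes and no ERα deleted array did at any (0). The columns of 2 ERα deleted arrays share a heading, and these are named here the first and the second array of the shared heading. Levels are log2 signals after background correction and quantile normalization, and each fold change sets ERα deleted cells over controls. Of the 25697 probes, 11089 were detected on at least 3 arrays and were tested, of which 982 passed the threshold (adjusted p under 0.05) upward and 1022 downward.

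The chemokine genes moved in both directions. Cxcl12, Cxcl10 and Cx3cl1 were higher in ERα deleted cells, by 3.63-fold, 3.39-fold and 2.52-fold, and Cxcl14, Ccl2, Cxcl1, Ccl7 and Ccl9 were lower, by 1.56-fold to 2.34-fold. Cxcl5 and Cxcl16 did not pass the test. Of the 10 genes, each taken by its brightest tested probe, 3 were thus called higher, where 9.62% of all 7696 genes tested were, and 5 lower, where 9.93% were. Called in either direction were 8 genes, beside 19.5% of all genes. The median log2 fold change of the 10 genes was -0.39, and that of all genes tested was -0.04. Of the 15 probes, 13 were tested, and 11 of these had groups that did not overlap, beside 42.4% of all tested probes. These genes were chosen with results of the same arrays known, so their counts are a description. With 3 arrays against 3, an exact two-sided permutation test of a single probe cannot go below p = 0.1, and the tests given are limma's moderated test whose p-values were adjusted over the 11089 probes together. In RNA from a mixed population, fewer cells of a type cannot be told apart from less RNA per cell.

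**Figure D1:**
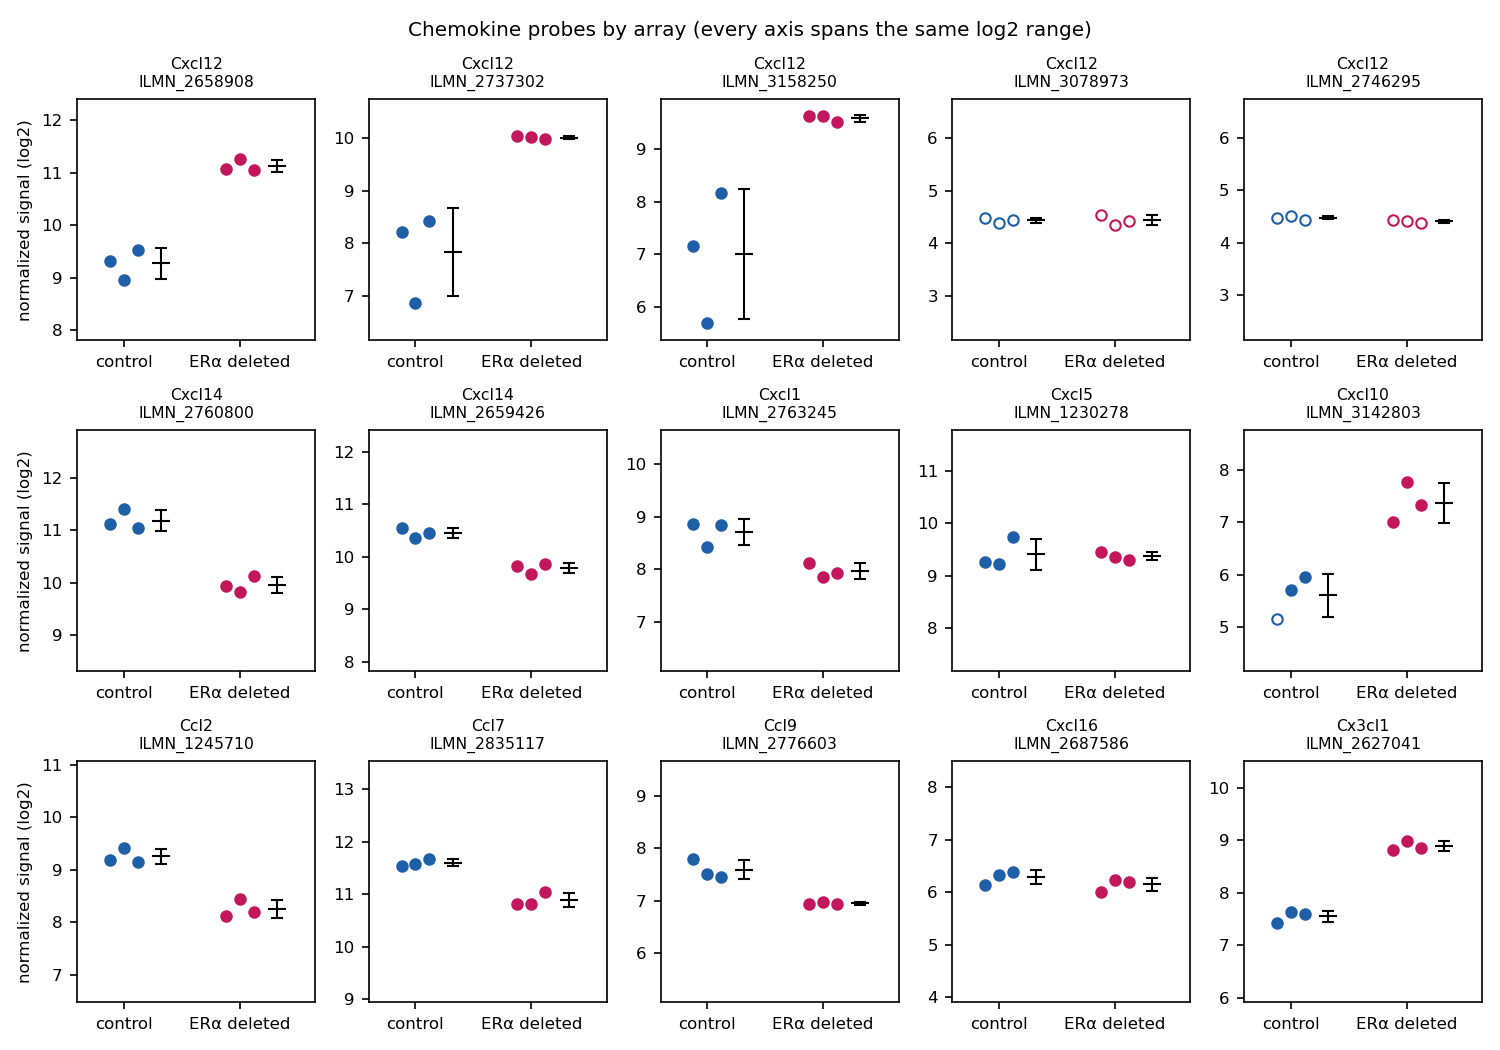
Normalized log2 signal of each of the 15 chemokine probes on the 3 control arrays (blue) and the 3 ERα deleted arrays (red), with open points where the probe was not detected at p under 0.01 and a bar for mean ± SD at the right of each group. The groups of the 3 tested Cxcl12 probes are apart, with a wider spread of the controls on the dimmer pair, while those of Cxcl5 and Cxcl16 overlap.

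Cxcl12, the ligand of CXCR4 and of the scavenging receptor ACKR3, was measured by 5 probes. On the brightest (ILMN_2658908, designed to NM_013655), the ERα deleted arrays read 11.08 on replicate 1, 11.26 on the first array of the shared heading and 11.06 on the second. The controls read 9.33, 8.96 and 9.54 on replicates 1, 2 and 3. Every ERα deleted array was thus above every control, and the gap between groups was wider than the range within either. The means were 11.13 ± 0.11 (SD, n = 3) and 9.28 ± 0.29 (SD, n = 3), a log2 fold change of 1.86 (standard error 0.17, 95% confidence interval 1.46 to 2.25, adjusted p = 0.00101 from limma). The scanner signals behind these values, before any correction, were 1481.2 to 2803.1 and 686.4 to 787.9.

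The second Cxcl12 probe (ILMN_2737302, designed to NM_021704) gave 10.04, 10.02 and 9.98 for ERα deleted cells, a range of 0.0539. It read 8.21, 6.87 and 8.43 on control replicates 1, 2 and 3, a range of 1.56. Its log2 fold change was 2.18 (standard error 0.39, adjusted p = 0.0127), a 4.52-fold difference. The third (ILMN_3158250, designed to NM_001012477) read 9.63, 9.63 and 9.51 in ERα deleted cells and 7.16, 5.69 and 8.17 in controls. Its log2 fold change was 2.58 (standard error 0.56, adjusted p = 0.0245), a 5.99-fold difference, and its controls ranged over 2.48. Control replicate 3 was the highest control and control replicate 2 the lowest on all 3 tested probes of Cxcl12. Both dimmer probes therefore varied far more among controls than among ERα deleted arrays, and their intervals (1.25 to 3.10 and 1.24 to 3.93) include the fold change of the brightest probe. The remaining pair of probes, ILMN_3078973 (NM_001012477) and ILMN_2746295 (NM_021704), was undetected on all 6 arrays, with detection p from 0.343 to 0.875 and from 0.482 to 0.823, and was not tested. The pairs of probes designed to NM_001012477 and to NM_021704 thus each held a detected and an undetected probe, and transcript forms of Cxcl12 were not read from these arrays. With any ERα deleted array left out, the calls of both dimmer probes were lost (adjusted p = 0.0634 to 0.0646 for ILMN_2737302 and 0.0943 to 0.0991 for ILMN_3158250). That of ILMN_3158250 was lost too without control replicate 1 (adjusted p = 0.0845) and with no detection filter (adjusted p = 0.0522). Without control replicate 2 the log2 fold change of ILMN_3158250 was 1.91, and without control replicate 3 it was 3.17 (adjusted p = 0.00335 and 0.00438). The brightest probe kept its call whichever array was left out (log2 fold change 1.70 to 1.99).

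Cx3cl1 and Cxcl10 were the other members that rose. Cx3cl1 encodes fractalkine, a chemokine made on a membrane-anchored stalk, which holds and attracts cells that bear CX3CR1. Its probe (ILMN_2627041) read 8.82, 9.0 and 8.86 in ERα deleted cells and 7.43, 7.63 and 7.61 in controls. The ranges within groups (0.18 and 0.20) were small beside the difference between means of 8.89 ± 0.09 and 7.56 ± 0.11 (SD, n = 3 each). The log2 fold change was 1.33 (standard error 0.11, 95% confidence interval 1.07 to 1.60, adjusted p = 0.00078 from limma). Cxcl10 encodes the interferon-inducible ligand of CXCR3, which attracts activated T cells. Its probe (ILMN_3142803) read 7.01, 7.76 and 7.34 in ERα deleted cells and 5.16, 5.71 and 5.95 in controls. It was near the detection limit in controls, with scanner signals of 102.7 to 139, and the first of them was undetected. The lowest ERα deleted array was still above the highest control. The log2 fold change of Cxcl10 was 1.76 (standard error 0.26, adjusted p = 0.00646), and on the authors' log2 table, which carries no background correction, it was 0.99 (adjusted p = 0.00517).

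The 3 CC members, which attract monocytes, were all lower. Ccl2 encodes a ligand of CCR2 that draws monocytes out of the marrow, and its probe (ILMN_1245710) read 8.12, 8.45 and 8.20 in ERα deleted cells and 9.19, 9.43 and 9.15 in controls. The groups were apart by more than the range of either. Their means were 8.26 ± 0.17 and 9.26 ± 0.15 (SD, n = 3 each), a 2.00-fold difference (log2 fold change -1.0, standard error 0.13, adjusted p = 0.00427 from limma). Ccl7, which encodes a second ligand of CCR2, read 10.81, 10.82 and 11.04 in ERα deleted cells and 11.54, 11.57 and 11.67 in controls (ILMN_2835117). It was 1.63-fold lower (log2 fold change -0.71, standard error 0.11, adjusted p = 0.00795). Ccl9 encodes a mouse ligand of CCR1 that osteoclasts and their precursors make and respond to. Its probe (ILMN_2776603) read 6.93, 6.98 and 6.93 in ERα deleted cells and 7.79, 7.51 and 7.46 in controls. The ERα deleted arrays lay within 0.0468 of each other, and every control was above them. Ccl9 was 1.56-fold lower (log2 fold change -0.64, standard error 0.12, adjusted p = 0.0158). The call of Ccl2 held whichever array was left out. That of Ccl7 was lost without the first array of the shared heading (adjusted p = 0.0518), and that of Ccl9 without control replicate 1 or any single ERα deleted array (adjusted p = 0.0567 to 0.0811) and under median scaling (adjusted p = 0.0634).

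Cxcl14, a homeostatic chemokine of skin and stroma, was measured by 2 probes, both lower in ERα deleted cells. The brighter (ILMN_2760800) read 9.94, 9.82 and 10.12 in ERα deleted cells and 11.12, 11.41 and 11.04 in controls. It had the greatest fall of the member probes, 2.34-fold (log2 fold change -1.23, standard error 0.14, adjusted p = 0.00236 from limma). The other (ILMN_2659426) read 9.81, 9.68 and 9.86 against 10.55, 10.36 and 10.45, a 1.59-fold difference (log2 fold change -0.67, standard error 0.11, adjusted p = 0.00886). On neither probe did the groups overlap. Both probes are designed to the same transcript (NM_019568). The call of ILMN_2659426 was lost without the first array of the shared heading (adjusted p = 0.0526) or control replicate 1 (adjusted p = 0.0511). Cxcl12 and Cxcl14, both homeostatic CXC genes, thus moved in opposite directions.

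The neutrophil attractants Cxcl1 and Cxcl5, ligands of CXCR2, differed from each other. Cxcl1 (ILMN_2763245) read 8.13, 7.85 and 7.92 in ERα deleted cells and 8.86, 8.43 and 8.84 in controls. Control replicate 2 was the closest to the ERα deleted arrays, and no values overlapped. Cxcl1 was 1.67-fold lower (log2 fold change -0.74, standard error 0.16, adjusted p = 0.0214 from limma), and its call was lost without control replicate 1 or any single ERα deleted array (adjusted p = 0.0553 to 0.0978). Cxcl5 (ILMN_1230278) read 9.45, 9.36 and 9.30 in ERα deleted cells, within the span of its controls at 9.27, 9.21 and 9.74. Its log2 fold change was -0.04, with a 95% confidence interval of -0.42 to 0.35 (adjusted p = 0.884), and its sign turned without control replicate 3 (0.13). Cxcl16, which like Cx3cl1 encodes a membrane-anchored chemokine and whose receptor is CXCR6, was dim. It read 6.01, 6.24 and 6.21 in ERα deleted cells and 6.14, 6.33 and 6.39 in controls (ILMN_2687586). The groups overlapped, and the log2 fold change was -0.13 with a 95% confidence interval of -0.42 to 0.15 (adjusted p = 0.45). Those intervals leave out changes as large as the fall of Cxcl1, and do not show that Cxcl5 or Cxcl16 was equal in both groups.

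**Figure D2:**
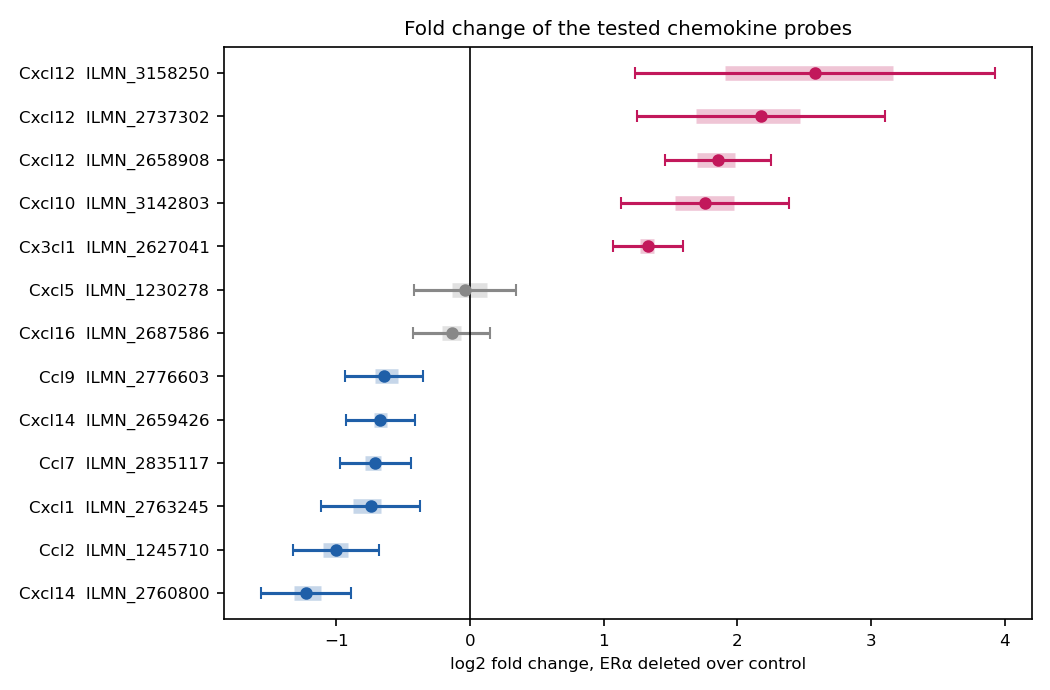
Log2 fold change of ERα deleted cells over controls for the 13 tested chemokine probes (points), with the 95% confidence interval from limma (thin bars) and the range over the fits that leave out 1 array (pale bands); red was called higher, blue lower and grey not called. The intervals of the 5 higher and 6 lower probes do not reach 0, and those of the dimmer Cxcl12 probes are the widest.

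On the authors' log2 table the 3 higher and the 5 lower genes were called in the same directions. Fold changes there were smaller. The log2 fold change was 1.75 for the brightest probe of Cxcl12, 1.08 for Cx3cl1, -1.17 for the brighter probe of Cxcl14, -0.86 for Ccl2, -0.69 for Ccl7, -0.61 for Cxcl1 and -0.44 for Ccl9. The dimmest Cxcl12 probe tested (ILMN_3158250) moved from 2.58 to 2.00. That probe and Cxcl10 moved more between the tables than any other member probe.

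Chemokine genes lie in clusters, and 7 of the 10 members have another chemokine gene starting within 500 kb in the RefSeq annotation of GRCm38.p6. Cxcl12, Cxcl14 and Cxcl16 have none. Cxcl10 lies between Cxcl9 and Cxcl11 on chromosome 5, and Cxcl9, another interferon-inducible ligand of CXCR3, was undetected in controls and at least 1.42-fold higher in the other group. Cxcl11 was not tested. Cxcl9, like Ccl12, Ccl3 and Ccl4 of the CC clusters, met the detection filter only through the 3 arrays on which it was bright, so it had to differ. Such genes get a lower bound here as a description, with no test, and none of them was tested once any single array of the bright group was left out. Cxcl1 and Cxcl5 share the other cluster of chromosome 5 with the platelet chemokine genes Ppbp and Pf4, with log2 fold changes of -1.82 and -1.12 (adjusted p = 0.00605 and 0.00288 from limma). Ccl2 and Ccl7 lie beside Ccl11 and Ccl12 on chromosome 11, where Ccl11, the eosinophil attractant eotaxin, was higher (log2 fold change 0.71, adjusted p = 0.0204). Ccl12 was undetected in ERα deleted cells and at least 1.40-fold lower. Ccl9 shares the second cluster of chromosome 11 with Ccl3, Ccl4 and Ccl5. Ccl3 was at least 1.34-fold lower and Ccl4 at least 2.63-fold lower, both undetected in ERα deleted cells, while Ccl5 was higher (log2 fold change 0.85, adjusted p = 0.019). Under median scaling neither Ccl11 nor Ccl5 was called (adjusted p = 0.0755 and 0.0696), and on the authors' table with the replicate block Ccl11 was not (adjusted p = 0.0907). Cx3cl1 lies between Ccl22 and Ccl17 on chromosome 8, and neither of these was tested.

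**Figure D3:**
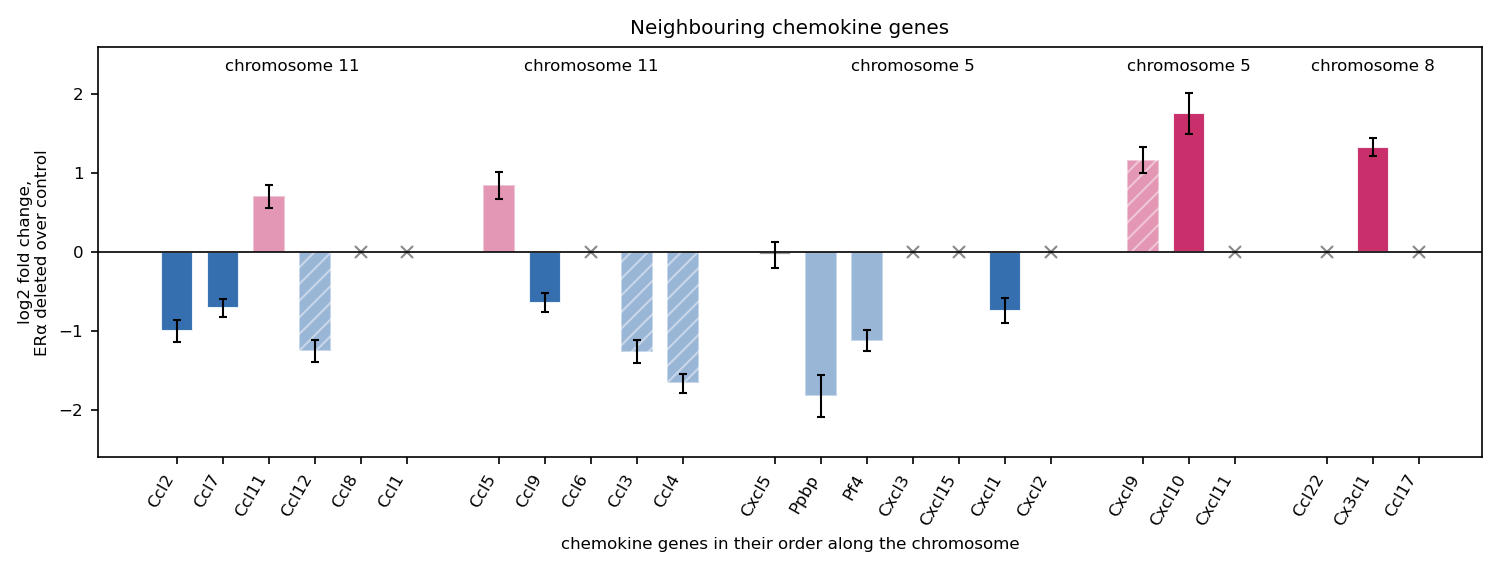
Log2 fold change of ERα deleted cells over controls (bars, ± standard error from limma) for chemokine genes in their order within 5 clusters. The 7 genes described here that have such a neighbour are in full colour, and their neighbours are pale. Red was called higher, blue lower and grey not called, and crosses mark genes that were not tested. Cxcl12, Cxcl14 and Cxcl16 lie in no cluster and are not drawn. Hatched bars are genes undetected on every array of a group, whose fold is given in the text as a lower bound. The bars of Cxcl10, Cx3cl1, Ccl11 and Ccl5 point up and those of Cxcl1, Ppbp, Pf4, Ccl2, Ccl7 and Ccl9 down, with 4 hatched bars for Cxcl9, Ccl12, Ccl3 and Ccl4.

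Of all 29 other chemokine ligands on the array, 10 were tested, 3 were higher (Cxcl9, Ccl5, Ccl11), 5 lower (Ppbp, Pf4, Ccl3, Ccl4, Ccl12) and 2 not called. Over all genes tested, 9.62% were called higher and 9.93% lower. Of the 8 ligand calls, 4 are of genes that met the filter only through the group in which they were bright (Cxcl9, Ccl3, Ccl4, Ccl12), so the counts are a description. The other 19 were undetected on all 6 arrays. The median log2 fold change of the 10 was -0.85, or -0.45 with genes undetected in a group at their bound. Without any single ERα deleted array Ccl5 and Ccl11 were not called and Cxcl9 was not tested. Without control replicate 1 neither Ccl5 nor Ccl11 was called. Without any single control 2 of the falls were called, since genes undetected in ERα deleted cells then no longer met the detection filter. Receptors were scarce. Of 21 receptor genes on the array 18 were undetected on all 6 arrays, among them Cxcr4 and Ackr3 for CXCL12, Cxcr2 for CXCL1 and CXCL5, Cxcr3 for CXCL10, and Ccr1 and Ccr2 for the CC members. Cx3cr1 was detected on 1 array and was not tested. Cxcr6, the receptor of CXCL16, read 5.28, 4.87 and 5.13 in ERα deleted cells, where it was undetected, and 7.85, 7.56 and 7.96 in controls. It was thus at least 5.29-fold lower, a description with no test, since Cxcr6 met the filter through the controls alone and was not tested with any single control left out or with detection required on all 6 arrays. Ackr4, a scavenger of CC ligands, was the only other receptor gene tested (log2 fold change 0.35, adjusted p = 0.373).

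Genes that process or hold chemokines were next counted, beside the 19.5% of all genes tested that were called in either direction. Of 4 tested genes for enzymes that cleave or shed chemokines, Mmp14, whose product truncates CXCL12, was higher (log2 fold change 0.59, adjusted p = 0.0238), and Adam17, Mmp2 and Cpd were not called. Of 13 tested genes for heparan sulfate synthesis, editing and core proteins, to whose chains chemokines bind, Sdc2 was higher (log2 fold change 0.77, adjusted p = 0.0155), Sulf1 was lower (log2 fold change -0.40, adjusted p = 0.04) and 11 were not called. The calls of Mmp14, Sdc2 and Sulf1 were each lost when the first or the second array of the shared heading or control replicate 1 was left out, and Mmp14 and Sulf1 were lost without ERα deleted replicate 1 as well. Under median scaling none of the 3 was called (adjusted p = 0.377, 0.183 and 0.122), and on the authors' table with the replicate block Sulf1 was not (adjusted p = 0.0645). Among 14 tested genes for stromal niche factors and their regulators, 4 were higher and 2 lower and 8 were not called, with a median log2 fold change of 0.03. Foxc1 and Ebf3, transcription factors that maintain CXCL12-abundant reticular cells of the marrow in mice, had log2 fold changes of 1.0 and 1.12 (adjusted p = 0.00939 and 0.035). Both calls were lost without control replicate 1 or either array of the shared heading, that of Ebf3 also without ERα deleted replicate 1, with cyclic loess and with no filter, and that of Foxc1 under median scaling. Ebf1, another factor of these cells, had -0.04 (adjusted p = 0.851), Il7 -0.43 and Pdgfrb -1.29 (adjusted p = 0.113 and 0.121), and Kitl and Lepr, which these cells express, were undetected on all 6 arrays. Angpt1, which encodes a ligand of the receptor Tie2, rose by 2.13 (adjusted p = 0.00473) and Ebf2 by 1.23 (adjusted p = 0.00345). Angpt1 was detected on only 1 of 3 controls, and its second probe (ILMN_2606451) on no array. Vcam1, an adhesion molecule of the niche, fell by 0.66 (adjusted p = 0.00886) and Grem1, a BMP antagonist, by 0.94 (adjusted p = 0.0139). The call of Vcam1 held whichever array was left out. That of Grem1 was lost without control replicate 1 or either array of the shared heading (adjusted p = 0.0617 to 0.0687). Leaving out 1 array gave 2 to 5 higher and 1 to 3 lower genes in the niche list, the fewest without control replicate 1 or either array of the shared heading.

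Interferon signalling lies upstream of Cxcl10, and NF-κB signalling upstream of the inflammatory members. Counts for both lists stand beside the 9.62% of all genes tested that were called higher and the 9.93% called lower. Of 11 tested genes of interferon signalling, Irf9 and Irf1 were higher (log2 fold change 0.94 and 0.80, adjusted p = 0.0204 and 0.00845), Ifngr1 was lower (-0.51, adjusted p = 0.0265) and 8 were not called. Under median scaling none of these 3 was called (adjusted p = 0.121 for Irf9, 0.149 for Irf1 and 0.113 for Ifngr1), which left 0 higher and 0 lower, and on the authors' table with the replicate block Ifngr1 was not (adjusted p = 0.0569). Of 15 tested genes of NF-κB signalling, Il1r1, the receptor of interleukin-1, and the adaptor gene Myd88 were higher (1.69 and 0.56, adjusted p = 0.015 and 0.0177), the call of Myd88 being lost under median scaling (adjusted p = 0.406). Il1r1 was detected on only 1 of 3 controls, and its other probe (ILMN_1231125) on no array. Ikbkg, a subunit of the IκB kinase, fell by 0.93 (adjusted p = 0.00157), and Tnfaip3, an NF-κB target that limits the pathway, was undetected in ERα deleted cells and at least 1.43-fold lower, a description with no test, as it too met the filter through the controls alone. The median log2 fold change was -0.09 in the interferon list and -0.21 in the NF-κB list. Without control replicate 1 or either array of the shared heading, 1 interferon gene and no NF-κB gene was called higher (1 and 0), and no interferon gene was called lower. Of the 6 members with a listed window, those whose windows hold κB letters were Cxcl10, which was higher, and Cxcl1 and Ccl9, which were lower. Whether NF-κB acts on these genes in these cells was not tested.

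**Figure D4:**
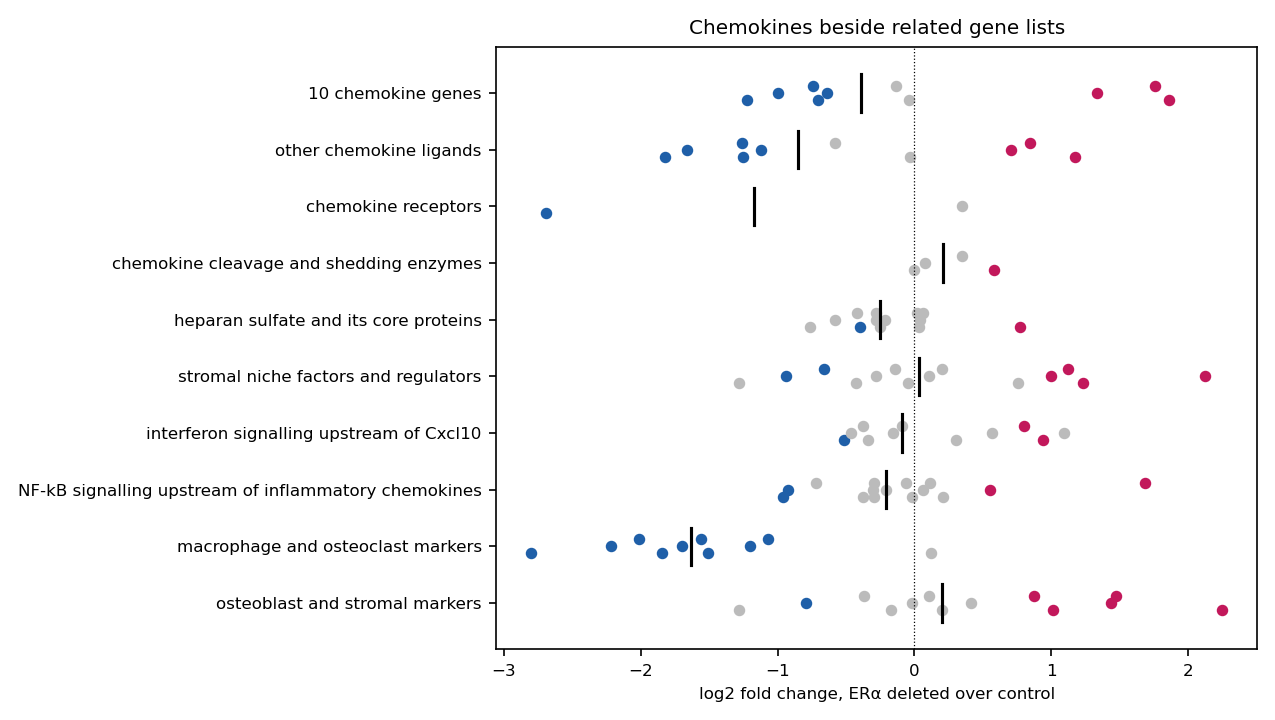
Log2 fold change of ERα deleted cells over controls for each tested gene (points, by its brightest probe) of the 10 chemokines and of 9 related lists, with black bars for medians; red was called higher, blue lower and grey not called, and genes undetected in a group are drawn at their fitted value. The chemokines and the other ligands spread to both sides of 0, while 9 of 10 macrophage and osteoclast markers lie below -1.

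Markers of cell types were counted as well, beside the 9.62% of all genes tested that were called higher and the 9.93% called lower. Of 16 macrophage and osteoclast markers on the array, 10 were tested and 9 were lower in ERα deleted cells, such as Clec4d by 6.98-fold, Fcer1g by 4.65-fold, Adgre1 by 4.03-fold and Lyz2 by 2.84-fold. Clec4d, Fcer1g and Adgre1 were each detected on only 2 of 3 ERα deleted arrays, and Ctss, also among the 9, on 1. On the authors' table Clec4d, Fcer1g and Adgre1 were still called, with smaller log2 fold changes of -1.74, -1.39 and -1.09. With detection required on all 6 arrays they were not tested. Ctsk was not called (log2 fold change 0.12, adjusted p = 0.403). Fcgr3 and Tyrobp, which are among the 9, were undetected in ERα deleted cells and met the filter through the controls alone, and Ptprc, Itgam, Fcgr1 and Acp5 were undetected on all 6 arrays. The summed normalized signal of the 10 tested markers was 6158 to 6559 in ERα deleted cells and 8738 to 10063 in controls, so these ranges did not overlap. Most of this sum came from the brightest markers, Ctsk (mean log2 signal 12.16 in ERα deleted cells and 12.04 in controls) and Lyz2 (10.07 and 11.58). The median log2 fold change of these 10 was -1.63, or -1.53 with genes undetected in a group at their bound. Ccl2, Ccl7 and Ccl9, which macrophages can express, fell on the same arrays, and the part of such cells in these falls was not tested. Of the osteoblast and stromal markers, all 13 on the array were tested, 5 were higher and 1 (Sp7, by 1.74-fold) lower, and 2 were called higher without any single ERα deleted array. Ibsp, among the 5, was undetected in controls and met the filter through the other group alone, and under median scaling 3 were called higher and 2 lower. Their summed signal was 46682 to 50595 and 40453 to 52711, with overlap, and the osteocalcin genes Bglap and Bglap2 rose, with log2 fold changes of 1.43 and 1.48 (adjusted p = 0.00179 and 0.00413). In each of the endothelial and the neutrophil and lymphoid lists 1 gene was tested and none was called.

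The genes whose pattern over the 6 arrays lay nearest to that of the brightest Cxcl12 probe, by the root mean square distance of log2 values after each gene's own mean was taken away, were Osr2 (0.0910), Birc5 (0.104), Cdkn1c (0.129), Lrba (0.130) and Nusap1 (0.137). Osr2, a transcription factor of skeletal development, read 7.82, 7.96 and 7.96 in ERα deleted cells and 6.14, 5.88 and 6.24 in controls. As in Cxcl12, control replicate 2 was the lowest and control replicate 3 the highest. Birc5 and Nusap1, genes of mitosis, had log2 fold changes of 1.87 and 1.62, and Cdkn1c, an inhibitor of cyclin-dependent kinases, had 1.79. These were the nearest of all genes tested, so their likeness is a description.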

How the data were processed

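Per the labels and the study's methods, the authors read each array with an Illumina scanner. The deposited table gives, per the file headers, an intensity (average signal) and a detection p-value for each probe and array, and no column was left unused. The deposited normalized table holds log2 values that the authors made with lumi by quantile normalization (version not given in the sources used here). Both tables were linked by their values on the 4 arrays that both name. The link was one to one for all 25697 probes. The first table names 14 rows by gene. Of these, 8 fell on a probe with a listed gene and could be checked, and all 8 were of that gene. Platform annotation gave 23978 probes 1 gene each and 1719 none.

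Background correction and quantile normalization of the signals used neqc (limma 3.58.1, R 4.3.3, offset 16, negative controls inferred from detection p). Probes detected (p under 0.01) on 3 or more of the 6 arrays were tested with lmFit and eBayes, with Benjamini-Hochberg adjustment over all of them. The brightest tested probe stands for a gene. A probe undetected on every array of a group has its fold given as a lower bound at the detection limit, on log2 means. Samples were grouped by their labels. Same-numbered arrays did not deviate together (r = 0.105, -0.0552 and -0.0501), so they were not paired. The members and lists were chosen with earlier results of these data known. All member probes were named, with up to 4 called genes per list by size of change (further ones after their values were seen), detected receptors of members and the 5 genes nearest to Cxcl12. Alternatives were other background corrections, normalizations, filters and fits, the authors' table with and without a replicate block, and leaving out each array.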

Additional observations from a re-analysis of the deposited data

How the results depend on the processing

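Under 17 alternatives the brightest probes of Cxcl12 and Cxcl14, Cx3cl1 and Ccl2 kept their direction and call, as did Cxcl10 under the 16 that tested it (the stricter filter left it out). Among these alternatives, the fit with no background correction gave the same values as that on the authors' table, so they are not separate checks. Median scaling moved the median of all tested probes from -0.02 to -0.17, gave 521 probes higher and 572 lower, and ended the call of Ccl9 (log2 fold change -0.76, adjusted p = 0.0634). With no filter ILMN_3158250 of Cxcl12 lost its call (adjusted p = 0.0522). The authors' table gave 1074 probes higher and 1055 lower, and with the replicate block 718 and 613. The block changed the call of no member. Leaving out 1 array gave 300 to 1644 probes higher and 283 to 1696 lower, and 2 to 5 lower member genes. The 3 higher genes were called each time. The ranges were -0.78 to -0.66 for Ccl7, -0.71 to -0.54 for Ccl9, -0.87 to -0.66 for Cxcl1 and -0.13 to 0.13 for Cxcl5, which turned without control replicate 3 (0.13). Of 374 list counts under alternatives, 303 stayed within 1.5 times. The cause of these moves was not tested. Slide as a block was not run, since no slide is given. Precision is limited by the number of arrays, and dim probes such as Cxcl10 and Cxcl16 lie close to background.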
